A study of Mus musculus with 2 samples.

Results

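The ubiquitin-specific protease genes were examined in MC3T3-E1 cells cultured with formaldehyde at 300 µM or at 100 µM. MC3T3-E1 is a clonal pre-osteoblast line from newborn mouse calvaria, and formaldehyde is a small aldehyde that crosslinks proteins to each other and to DNA. Each dose has 1 RNA sequencing library, with no exposure time in the labels, and untreated cells are not analysed in what follows. Without replicates there is no p-value, and every difference is between these 2 libraries. Members were taken by a rule on names alone: every listed gene whose mouse symbol is Usp followed by a number and at most 1 letter. The rule used no level, though the choice was made with earlier results of these data known. It gave 47 of the 17215 genes listed. The genes Usp17la, Usp17lb, Usp17ld, Usp17le and Usp6nl carry longer suffixes and were left out, and the highest of these, Usp6nl, stood at 0.77 FPKM at 300 µM, against 2.26 at 100 µM.

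Ubiquitin is a small protein that is attached to other proteins as a single unit or as a chain, and many chains send the tagged protein to the proteasome. Deubiquitinases cut it off again, and the ubiquitin-specific proteases are their largest family in mammals. They are cysteine proteases with a shared catalytic core, while the regions around the core bind the substrates and partners that give each enzyme its role. Some act on DNA repair factors or on p53 and its ligase, some on histones, some at the proteasome, and others at endosomes, mitochondria or the nucleolus. Most of the roles named here were established in human cells.

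Levels are given in FPKM as the authors deposited them, a unit in which fragment numbers are divided by transcript length and by the library's total. The libraries held about 19400000 fragments at 300 µM and 18500000 at 100 µM, estimated from the steps between low values. The dose ratio is log2 of FPKM + 1 at 300 µM over FPKM + 1 at 100 µM. It was taken where the mean of both libraries was 1 FPKM or more, and genes beyond 2-fold on this scale are called higher or lower. The added 1 understates the change of low genes. Where a plain dose ratio of a member is given, it carries an exact 95% interval for counting error. The interval comes from read numbers estimated with 1 transcript length per gene. These intervals hold no variation between cultures. The labelled cell type was checked against its markers. The matrix genes Col1a1 and Sparc stood at 1714 and 1915 FPKM at 300 µM, against 2065 and 1596 at 100 µM. Alpl was near 1 FPKM at both doses, with 1.06 at 300 µM against 0.98 at 100 µM, and Bglap stood at 0.49 FPKM at 300 µM and was listed at 0 at 100 µM. The lineage factor Runx2 stood at 3.60 FPKM at 300 µM, against 7.99 at 100 µM, a log2 ratio of -0.97. It was the lowest of 9 osteoblast markers compared, of which 0 were beyond 2-fold on this scale. The plain ratio of Runx2, taken without a counting interval, was 0.451, so it was within 2-fold only through the added 1. The summed level of 6 macrophage and blood cell markers was 1.23 FPKM at 300 µM against 3.06 at 100 µM, of which Cd68 gave 0.77 at 300 µM against 2.57 at 100 µM and Csf1r 0.40 at 300 µM against 0.44 at 100 µM. Ptprc and Itgam were at 0.05 FPKM or less, and Adgre1 and Tyrobp at 0, in both libraries. Of 4 markers each, the adipocyte sum was 0.57 FPKM at 300 µM against 0.15 at 100 µM, and the endothelial sum 0.10 FPKM at 300 µM against 0.12 at 100 µM. The sum of 4 osteocyte markers was 0.89 FPKM at 300 µM against 2.40 at 100 µM, most of it Dmp1. Plin1, Fabp4, Kdr and Sost were at 0 in both libraries. The part of other cells in the dose ratios was not tested, and fewer cells of a type and less RNA per cell cannot be told apart in bulk samples.

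Transcripts of the family were lower at 300 µM than at 100 µM in most cases, and none was called higher. Of the 38 members compared, 20 (52.6%) were called lower and 0 higher. Over all 10123 genes compared, 29.8% were lower and 6.09% higher. The median log2 ratio was -1.05 over the members and -0.30 over all genes. After centring on the median gene, 10 members (26.3%) were lower and 0 higher, while 22.3% of all genes were lower and 14.5% higher, so the centred share lower was near that of all genes. Summed over the 47 members, the level was 334.9 FPKM at 300 µM, against 583 at 100 µM.

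The filter on the mean bears on these counts. Of the 20 members called lower, 7 stood below 1 FPKM at 300 µM and passed the filter through their level at 100 µM. Usp53, just above the filter at 0.15 FPKM at 300 µM, against 1.94 at 100 µM, had to differ in order to pass. With no filter, 21 of 44 members were lower, against 20.8% of 14909 genes. Over all genes the lower calls then went from 3020 of 10123 to 3097 of 14909, as the added 1 leaves few calls among low genes. The members went only from 38 to 44, so the unfiltered shares are not like for like. With the filter raised to 10 FPKM, 7 of 14 members were lower, against 21.4% of 5340 genes. At 3-fold, 8 of 38 members were lower, against 16.3% of all genes.

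The order of the levels was held in part between the doses. Usp5 was the most abundant member at both, with 73.8 FPKM at 300 µM, against 57.0 at 100 µM. At 300 µM it was followed by Usp39, Usp8, Usp14 and Usp4, at 40.8, 24.6, 23.4 and 21.2 FPKM. At 100 µM the next were Usp22, Usp39, Usp1 and Usp19, at 51.9, 47.2, 37.5 and 34.5 FPKM. Usp36 held rank 20 at 300 µM and rank 7 at 100 µM, and Usp11 held rank 19 at 300 µM and rank 35 at 100 µM. Across the 38 members, which share the same pair of libraries, Spearman's rho of the levels was 0.77, against 0.81 across all genes compared. At least 10 FPKM was reached by 9 members at 300 µM and by 17 at 100 µM.

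**Figure D1:**
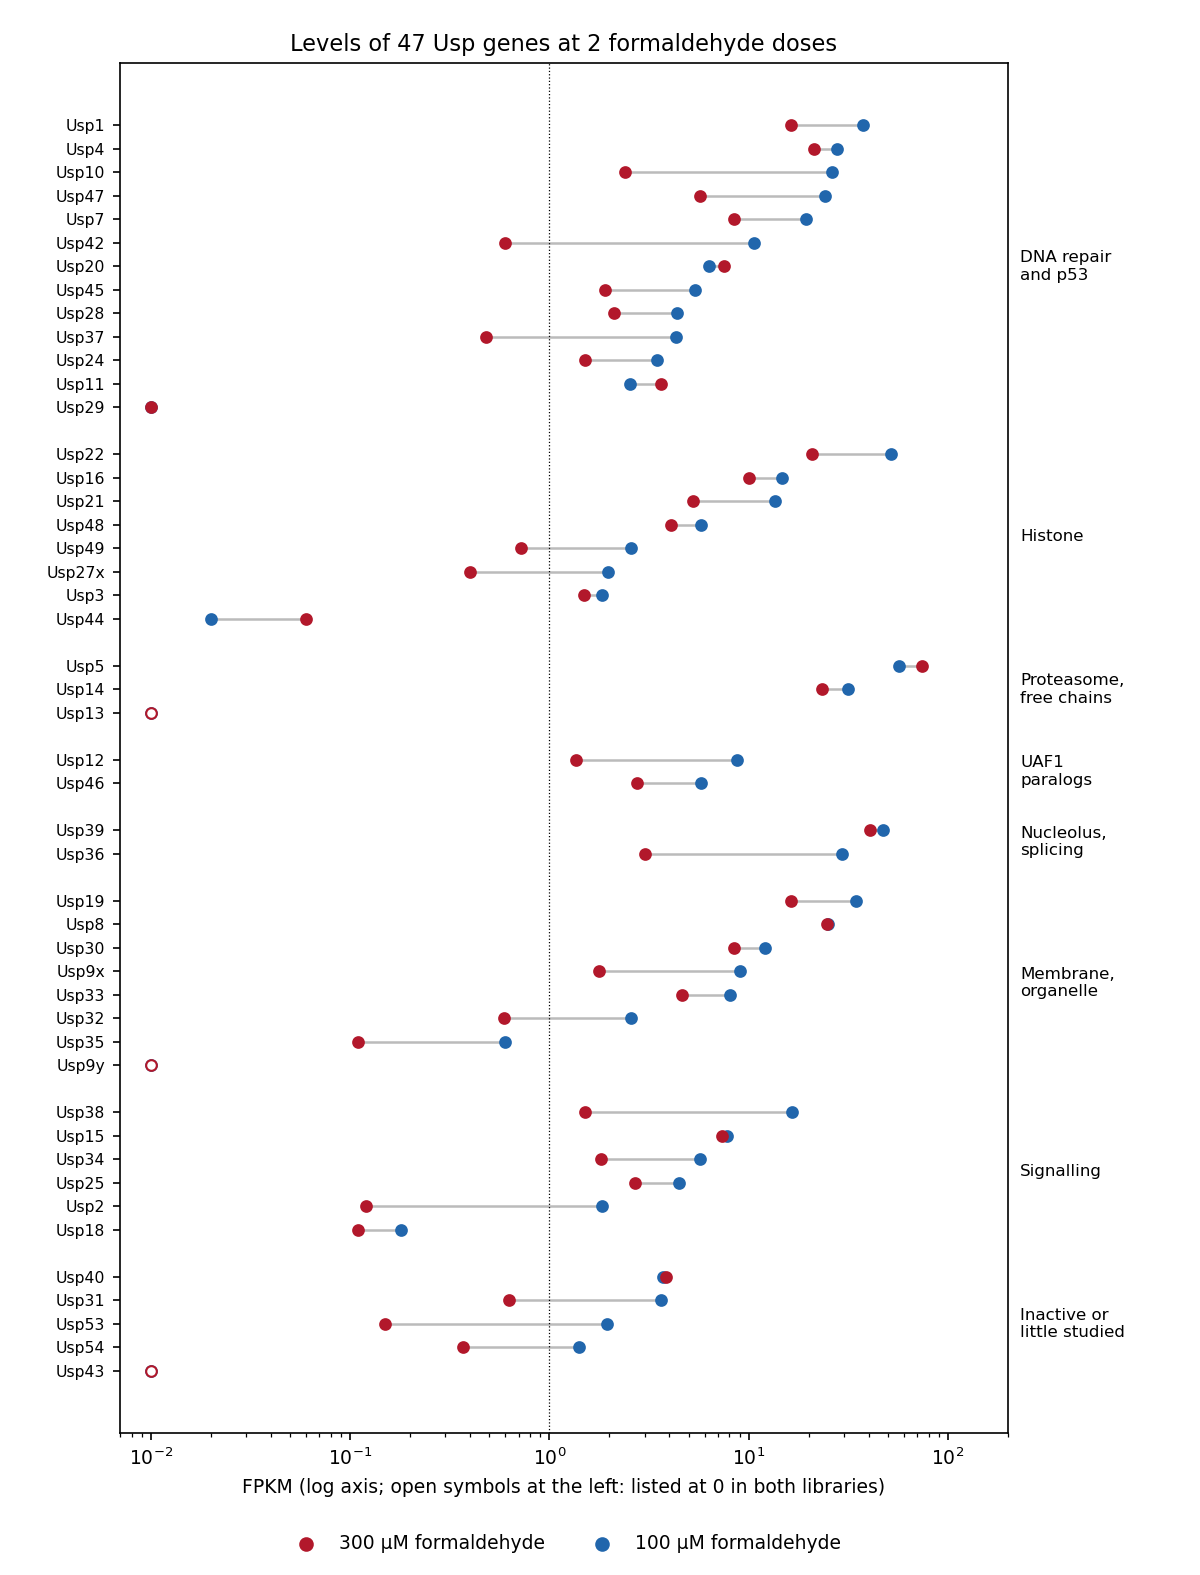
FPKM of the 47 members (log axis) in the library at 300 µM (red) and at 100 µM (blue), grouped by primary role, with 1 point per library and no error bars because there were no replicates. Most red points lie left of the blue ones, with the widest gaps for Usp42, Usp2, Usp53, Usp10 and Usp38. Usp5, Usp11, Usp20, Usp40 and the low Usp44 lie to the right, of which Usp5, Usp20 and Usp40 have log2 ratios of -0.00, -0.10 and -0.26 with equal sums.

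Among the enzymes of DNA repair and p53 control, log2 ratios ran from -3.01 for Usp10 to 0.39 for Usp11. Of 13 listed, 12 were compared, 7 were lower and 0 higher, with a median log2 ratio of -1.13. That is 58.3% lower, against 29.8% of all genes, and after centring 4 of 12 or 33.3%, against 22.3%. Usp42 and Usp37, lower in both counts, stood at 0.60 and 0.48 FPKM at 300 µM. They passed the filter only through their level at 100 µM. Usp29 was at 0.01 FPKM in both libraries.

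Of the deubiquitinases that act on p53 or its ligase Mdm2, Usp10, Usp42 and Usp7 were lower, by very different ratios. Usp10, which removes ubiquitin from p53 in the cytoplasm and binds the stress granule protein G3bp1, had 2.39 FPKM at 300 µM, against 26.3 at 100 µM. That is 11.0-fold lower, with a counting interval of 9.40 to 12.9. Usp42, another p53 deubiquitinase, had 0.60 FPKM at 300 µM, against 10.7 at 100 µM, which is 17.8-fold lower (13.7 to 23.5). On the log2 scale with the added 1 these genes had -3.01 and -2.87, the first and the third lowest of the family. Usp7, which binds both p53 and Mdm2 and stabilises the ligase, had 8.40 FPKM at 300 µM, against 19.5 at 100 µM, 2.32-fold lower (2.13 to 2.53). Its ratio of -1.12 lay within 2-fold after centring, at -0.82. Usp24, for which p53 and the lesion sensor Ddb2 are substrates, had 1.51 FPKM at 300 µM, against 3.46 at 100 µM. Its plain ratio was 2.29-fold lower (2 to 2.63), and its log2 ratio of -0.83 was within 2-fold only through the added 1.

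Usp1 is the deubiquitinase of crosslink repair: with its activating subunit UAF1, encoded by Wdr48, it removes the single ubiquitin from Fancd2 and from the sliding clamp Pcna. Usp1 had 16.4 FPKM at 300 µM, against 37.5 at 100 µM, 2.30-fold lower (2.14 to 2.46). In its transcript 22.8% of the 50-base words also occur in the pseudogene Gm5841, so its reads may be divided. Wdr48 stood at 6.18 FPKM at 300 µM, against 14.7 at 100 µM (log2 ratio -1.12). The substrates had ratios of the other sign: 0.77 for Fancd2, 0.97 for its partner Fanci and 0.69 for Pcna, none beyond 2-fold in the scale used. After centring, Fancd2 at 1.07 and Fanci at 1.27 were beyond it, Pcna had 0.99 and Usp1 had -0.85. The plain ratios were 2.05 for Fancd2 and 2.43 for Fanci, for which no counting interval was taken.

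Of the enzymes tied to single repair pathways, Usp47, which acts on the base excision polymerase beta, had 5.71 FPKM at 300 µM, against 24.2 at 100 µM. It was 4.23-fold lower (3.88 to 4.62). Usp45, which acts on the crosslink and excision repair nuclease subunit Ercc1, had 1.90 FPKM at 300 µM, against 5.38 at 100 µM. It was 2.83-fold lower (2.43 to 3.33). Usp37, which has cyclin A and the helicase Blm among its substrates, had 0.48 FPKM at 300 µM, against 4.34 at 100 µM. Its plain ratio of 9.04-fold lower had an interval of 7.03 to 11.9. Usp28, a partner of 53BP1 that also stabilises Myc, had 2.12 FPKM at 300 µM, against 4.37 at 100 µM (log2 ratio -0.78). Its plain ratio was 2.06-fold lower (1.71 to 2.49), so like Usp24 it was within 2-fold through the added 1.

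The remaining 3 members of this role, Usp4, Usp11 and Usp20, had the highest ratios in it. Usp4, which takes part in DNA end resection, had 21.2 FPKM at 300 µM, against 27.8 at 100 µM (log2 ratio -0.38, and 0.00 with the TMM factor). Usp11, a deubiquitinase of the Brca2 and Palb2 complex, had 3.65 FPKM at 300 µM, against 2.55 at 100 µM. Its log2 ratio of 0.39 was the highest of the family, its plain ratio 1.43 (1.17 to 1.75), and it stayed above 0 in each of the 4 scalings. Usp20, which stabilises the checkpoint adaptor claspin, had 7.55 FPKM at 300 µM, against 6.31 at 100 µM, a log2 ratio of 0.23 that became -0.10 with equal sums.

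**Figure D2:**
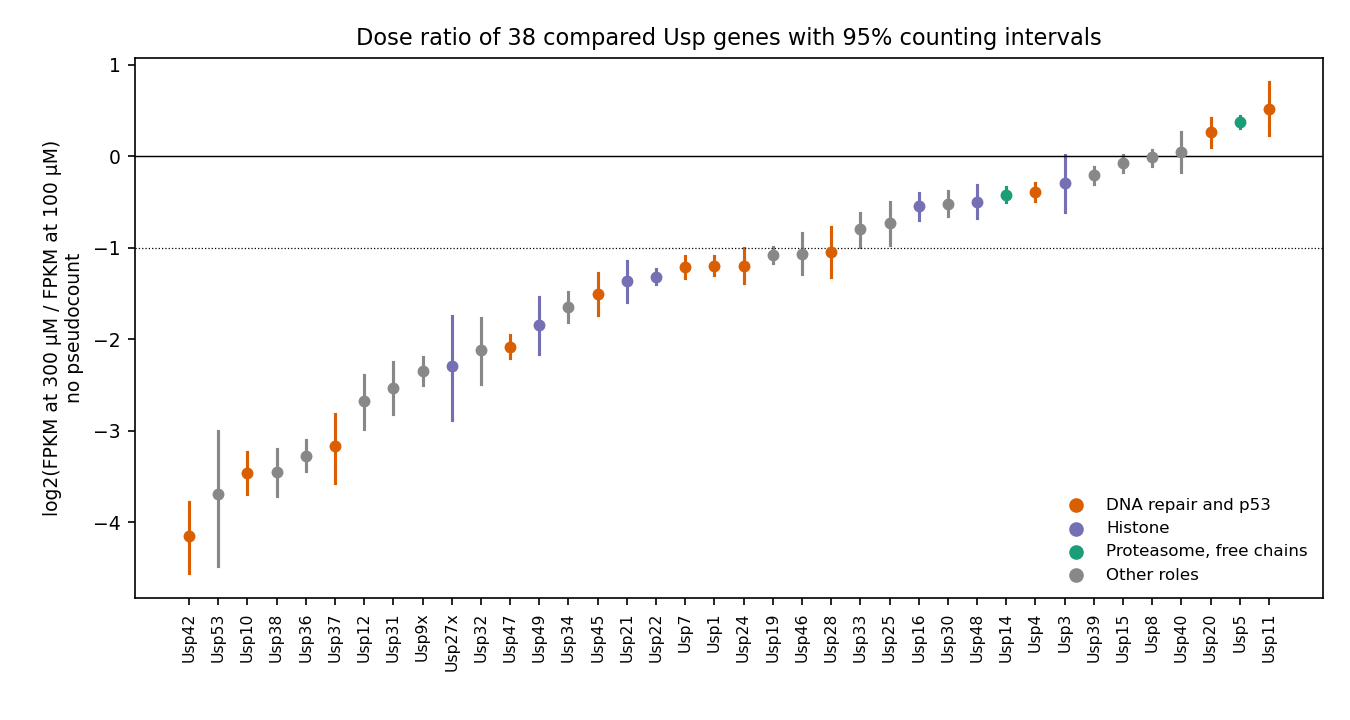
Log2 of the plain ratio of FPKM at 300 µM over FPKM at 100 µM for the 38 members compared, in rank order and coloured by role, with exact 95% intervals for counting error only. Usp42 is farthest below 0 and Usp11 highest, and the intervals are much narrower than the range of the family.

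Among the histone deubiquitinases, 3 genes known for H2B and 1 known for H2A were lower. Of 8 listed, 7 were compared, 4 were lower and 0 higher, with a median of -1.06. That is 57.1% lower, against 29.8% of all genes, but Usp27x and Usp49 passed the filter through their level at 100 µM. After centring 0 of the 7 were lower, against 22.3% of all genes. Usp22, the catalytic subunit that removes ubiquitin from histone H2B in the SAGA coactivator, had 20.8 FPKM at 300 µM, against 51.9 at 100 µM, 2.50-fold lower (2.36 to 2.64). Usp27x, which can replace it on the same adaptor subunits, had 0.40 FPKM at 300 µM, against 1.96 at 100 µM. Usp49, also described as an H2B deubiquitinase, had 0.72 FPKM at 300 µM, against 2.58 at 100 µM, but 51.8% of its 50-base words occur in the overlapping gene Gm20517, and its value is uncertain. Usp44, a further H2B enzyme, stood at 0.06 FPKM at 300 µM, against 0.02 at 100 µM, and was not compared.

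The enzymes known for histone H2A lay closer to parity with 1 exception. Usp21 had 5.25 FPKM at 300 µM, against 13.5 at 100 µM, 2.58-fold lower (2.21 to 3.02). Usp16, which clears H2A before mitosis, had 10.0 FPKM at 300 µM, against 14.7 at 100 µM (log2 ratio -0.51). Usp48, which acts on the H2A site marked by Brca1, had 4.06 FPKM at 300 µM, against 5.74 at 100 µM (-0.41). Usp3, which acts on H2A and H2AX near DNA breaks, had 1.49 FPKM at 300 µM, against 1.83 at 100 µM, with a plain ratio of 0.814 whose interval of 0.655 to 1.01 includes 1. Its log2 ratio of -0.18 became 0.11 after centring. The SAGA adaptor genes differed in direction: Atxn7l3 stood at 8.11 FPKM at 300 µM against 24.8 at 100 µM, and Eny2 at 35.1 FPKM at 300 µM against 23.3 at 100 µM. Atxn7l3b, a relative of Atxn7l3, stood at 7.87 FPKM at 300 µM against 64.7 at 100 µM.

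The members bound to the proteasome or to free ubiquitin chains were not called in either direction. Usp14, which docks on the proteasome subunit Psmd2 and trims chains from substrates there, had 23.4 FPKM at 300 µM, against 31.4 at 100 µM, a plain ratio of 0.745 (0.704 to 0.789). Usp5, which takes apart free ubiquitin chains, had 73.8 FPKM at 300 µM, against 57.0 at 100 µM, a plain ratio of 1.29 (1.24 to 1.35). Its log2 ratio was 0.37, and -0.00 with equal sums. Its relative Usp13 was listed at 0 in both libraries. Exons of Thoc1 on the other strand cover 45.9% of the Usp14 transcript, and whether the counting used strand is not given in the sources used here.

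The other proteasome genes of the lists were within 2-fold as well. Psmd14, the metalloprotease of the proteasome lid, had 61.1 FPKM at 300 µM, against 44.9 at 100 µM (log2 ratio 0.44), and Uchl5, a cysteine protease docked on it, had 12.2 FPKM at 300 µM against 13.9 at 100 µM (-0.17). The docking subunit of Uchl5, Adrm1, had 156 FPKM at 300 µM, against 139 at 100 µM (0.17), and Psmd2 had 107 FPKM at 300 µM against 128 at 100 µM (-0.25). Psmd7, the inactive lid partner of Psmd14, had 92.6 FPKM at 300 µM against 145 at 100 µM (-0.64). After centring Psmd14 had 0.74 and Psmd7 -0.34.

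Outside these roles 23 members were listed, 17 were compared, and 9 of those were lower and 0 higher (6 and 0 after centring). These are 52.9% and, centred, 35.3% lower, against 29.8% and 22.3% of all genes. Among those lower, Usp31, Usp32 and Usp53 stood below 1 FPKM at 300 µM and passed the filter through their level at 100 µM. Usp36, which acts in the nucleolus and also stabilises Myc, had 3.03 FPKM at 300 µM, against 29.3 at 100 µM, 9.67-fold lower (8.62 to 10.8). Usp38, which acts in innate immune signalling, had 1.51 FPKM at 300 µM, against 16.5 at 100 µM, 10.9-fold lower (9.18 to 13.1). With Usp10 and Usp42 they had the lowest log2 ratios of the family, all 4 at or below -2.80 on the log2 scale, while the next lowest, Usp12, was at -2.04. That gap depends on the added 1: with 0.1 added, Usp36 had -3.23, Usp53 -3.03 and Usp37 -2.94. By plain ratio Usp53, 12.9-fold lower (8 to 22.2), ranked below Usp10, Usp38 and Usp36, but its interval overlaps theirs.

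Usp12, which like Usp1 is activated by UAF1, had 1.36 FPKM at 300 µM, against 8.71 at 100 µM, 6.40-fold lower (5.26 to 7.90). Usp9x, a large enzyme of endosomal sorting and cell polarity, had 1.77 FPKM at 300 µM, against 8.99 at 100 µM, and its Y-linked homologue Usp9y was listed at 0 in both. Usp34, which acts on axin in the Wnt pathway, had 1.82 FPKM at 300 µM, against 5.70 at 100 µM. Usp19, an enzyme of the endoplasmic reticulum, had 16.3 FPKM at 300 µM, against 34.5 at 100 µM, and its log2 ratio of -1.04 was the closest to the 2-fold bound among the genes called. The low members Usp31, Usp32 and Usp53 had 0.63, 0.59 and 0.15 FPKM at 300 µM, against 3.65, 2.57 and 1.94 at 100 µM.

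Usp8, which acts on growth factor receptors at endosomes, had nearly equal values, with 24.6 FPKM at 300 µM, against 24.9 at 100 µM, and a plain ratio of 0.990 (0.929 to 1.05). Usp15, which acts on TGF-beta receptors and their SMADs, had 7.34 FPKM at 300 µM, against 7.75 at 100 µM, and Usp40 had 3.83 FPKM at 300 µM against 3.71 at 100 µM. Usp39, a spliceosome protein that has lost protease activity, had 40.8 FPKM at 300 µM, against 47.2 at 100 µM. With equal sums Usp8, Usp15, Usp39 and Usp40 had log2 ratios of -0.38, -0.40, -0.57 and -0.26, and with the TMM factor 0.37, 0.29, 0.18 and 0.36, so no direction is given for them. Usp30, which sits on the outer mitochondrial membrane, had 8.46 FPKM at 300 µM, against 12.1 at 100 µM. The log2 ratios of Usp46, Usp33 and Usp25 were -0.85, -0.69 and -0.57. By plain ratio Usp46 was 2.09-fold lower (1.79 to 2.44), so it too was within 2-fold through the added 1. Just beyond the 2-fold bound after Usp19 were Usp49 and Usp27x at -1.06 and -1.08, and just within it Usp46, Usp24 and Usp28.

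Below the level compared, Usp2, which stabilises cyclin D1, had 0.12 FPKM at 300 µM, against 1.84 at 100 µM, about 9 estimated reads at 300 µM against 132 at 100 µM. Usp54 had 0.37 FPKM at 300 µM against 1.41 at 100 µM, and Usp35 had 0.11 FPKM at 300 µM against 0.60 at 100 µM. Usp18, which removes the ubiquitin-like protein Isg15, had 0.11 FPKM at 300 µM against 0.18 at 100 µM. Usp43 was listed at 0 in both libraries. Values of Usp33, Usp38 and Usp34 are uncertain in the same way as that of Usp14, since exons of other genes on the opposite strand cover 44.0%, 24.9% and 17.5% of their transcripts. Of the 50-base words of Usp9x, 7.30% occur in other genes.

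Related members did not always keep their balance between the doses. Of 9 pairs of paralogs with both genes compared, 5 had log2 ratios within 0.5 of each other and 1 differed by at least 1, with a median gap of 0.46. That pair was Usp12 and Usp46, which share UAF1 and the subunit encoded by Wdr20: the level of Usp12 was 0.493 times that of Usp46 at 300 µM and 1.51 times at 100 µM. The order also turned between Usp20 and Usp33, where Usp20 was 1.63 times as high at 300 µM and 0.784 times as high at 100 µM. Usp36 and Usp42 were 9.67-fold (8.62 to 10.8) and 17.8-fold (13.7 to 23.5) lower by plain ratio. Only with the added 1 were their log2 ratios nearly equal, at -2.91 and -2.87. The H2A enzyme Usp16 and its relative Usp45 had -0.51 and -1.14, and Usp4, Usp11 and Usp15 had -0.38, 0.39 and -0.07. The pairs among Usp4, Usp11 and Usp15 share genes, so the 9 pairs are not independent. No such count was taken over other pairs of genes, so whether paralogs differ from these was not tested.

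**Figure D3:**
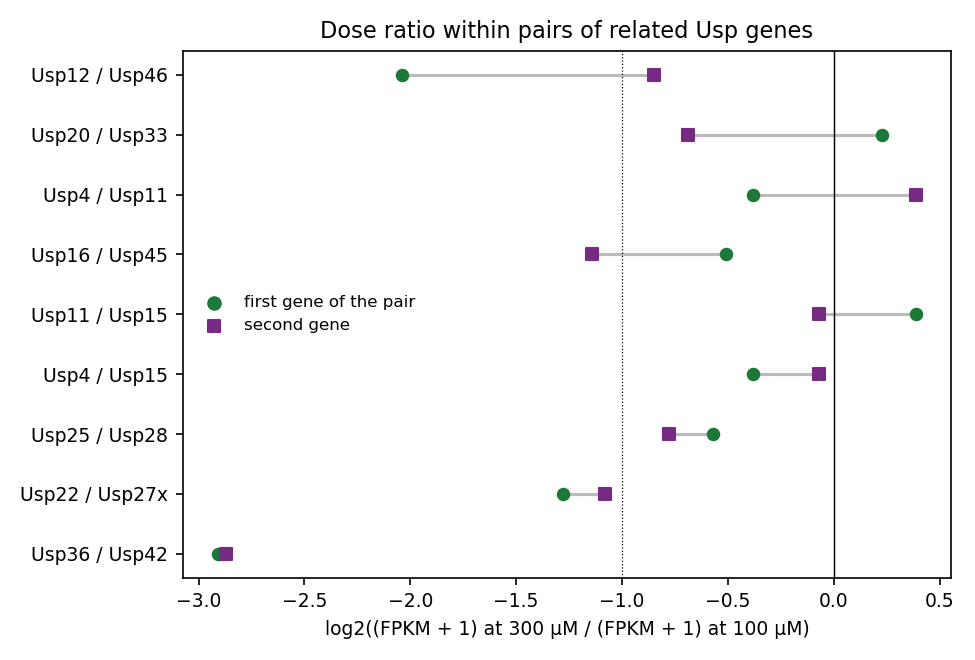
Log2 dose ratios with the added 1 for both genes of the 9 paralog pairs compared, ordered by the gap between them, with circles for the first gene named and squares for the second. Usp12 and Usp46 are farthest apart, by 1.19, and Usp36 and Usp42 lie closest, by 0.04. The closeness of Usp36 and Usp42 depends on the added 1.

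The other families of deubiquitinases give the setting for these values. Of 42 such genes listed, 40 were compared, 16 were lower and 2 higher (9 and 3 after centring), and the median log2 ratio was -0.54. The shares lower, 40% and 22.5% after centring, compare with 29.8% and 22.3% of all genes. The OTU family, papain-like cysteine proteases, had 10 of 14 lower and 0 higher, with a median of -1.25 (6 and 0 after centring). That is 71.4% lower and 42.9% after centring, but 4 of the 10 stood below 1 FPKM at 300 µM and passed the filter through their level at 100 µM. Otud4 and Vcpip1 were lowest there, with 1.84 and 0.63 FPKM at 300 µM, against 32.4 and 12.3 at 100 µM. The others lower were Otud1, Otud7b, Zranb1, Otulin, Yod1, Otub2, Otud6b and Tnfaip3, from -2.13 to -1.06, while Otub1 had 91.5 FPKM at 300 µM, against 99.2 at 100 µM.

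The zinc metalloproteases of the JAMM family, which include inactive relatives in large complexes, had 2 of 12 lower, 1 higher and a median of 0.41 (0 and 2 after centring), or 16.7% lower and 8.33% higher, against 29.8% and 6.09% of all genes. Prpf8 and Mysm1, an H2A deubiquitinase, were lower at -1.05 and -1.26, and Mpnd was higher at 1.10. Mysm1 had 0.83 FPKM at 300 µM, against 3.37 at 100 µM, and passed the filter through its level at 100 µM. Of 3 UCH genes compared, Bap1, the H2A deubiquitinase of the Polycomb-opposing complex, was lower, at 6.30 FPKM at 300 µM, against 22.01 at 100 µM. Of 3 Josephin genes, Josd1 and Atxn3 were lower, at -2.34 and -1.24, and Josd2 had 0.54. Mindy4, just above the filter through its level at 300 µM, was the other gene higher, with 1.79 FPKM at 300 µM, against 0.24 at 100 µM (1.17), among 5 MINDY and ZUP1 genes of which 0 were lower. Uspl1, a SUMO protease related to the family by sequence, had 1.28 FPKM at 300 µM, against 20.97 at 100 µM (-3.27), whereas Cyld, which cuts linear and K63-linked chains, had 6.18 FPKM at 300 µM against 6.27 at 100 µM (-0.02).

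**Figure D4:**
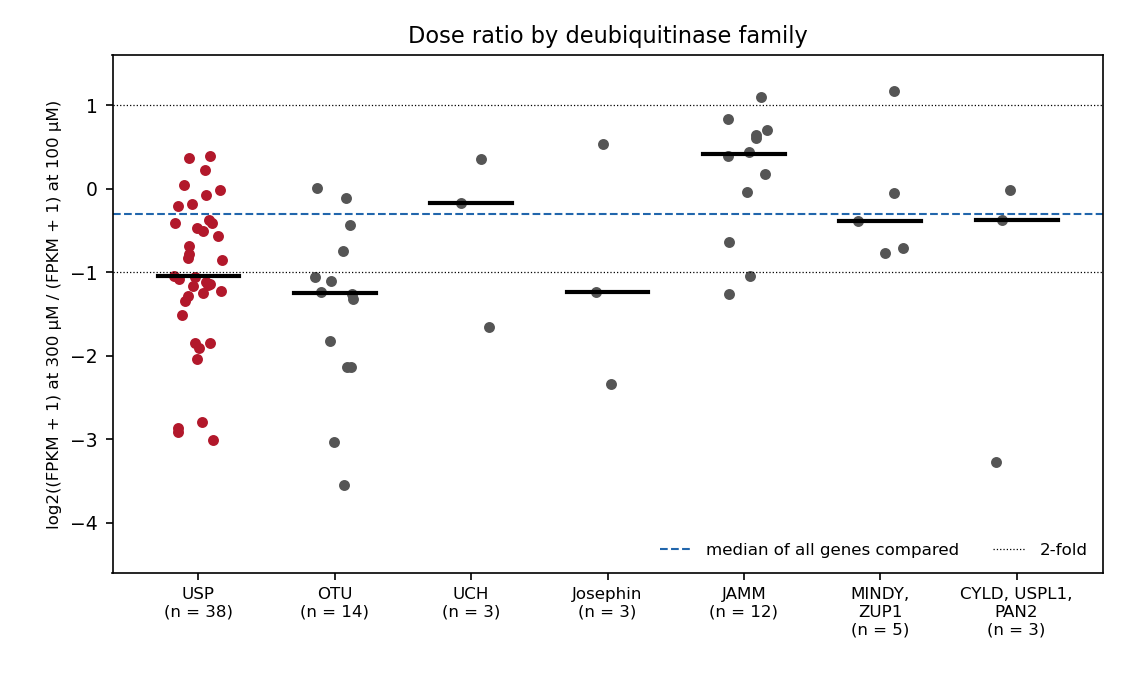
Log2 dose ratios with the added 1 for each gene compared, by deubiquitinase family, with the ubiquitin-specific proteases (USP) in red, a bar at each family's median and a dashed line at the median of all genes compared, -0.30. The USP and OTU medians lie at -1.05 and -1.25, and the JAMM median at 0.41.

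Of 28 partners and substrates of the family, 10 were lower and 0 higher, with a median of -0.28 (7 and 2 after centring). The share lower, 35.7% and 25% after centring, was near that of all genes, 29.8% and 22.3%, as was the median of -0.30 over all genes. Beside those given above, the ligase genes Mdm2 and Mdm4 were lower, at -2.74 and -2.22, as were G3bp2, Wdr20, Stam (the endosomal partner of Usp8), and Trim27 (a partner of Usp7), at -1.67, -1.51, -1.47 and -1.29. Atxn7, a SAGA subunit, lay at the 2-fold bound with 0.36 FPKM at 300 µM against 1.72 at 100 µM. Trp53, which encodes p53, had 138 FPKM at 300 µM, against 113 at 100 µM. The polyubiquitin gene Ubb was higher, at 2855 FPKM at 300 µM, against 932 at 100 µM (log2 ratio 1.61). Reads within its repeated units can be divided among genes that share them. Of the ubiquitin-activating enzymes, Uba1 had a log2 ratio of -0.05 and Uba6 was lower at -1.70.

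Members of the family have long transcripts, and across the whole table a larger share of the long transcripts was called lower. In the GENCODE M21 annotation the median representative transcript of the 38 members compared was 4760 bases, against 3080 bases over 10093 genes. Their coding part had a median of 2878 bases, against 1332 bases. Of 8 members with transcripts over 2 and up to 4 kb, 3 were lower, a share of 37.5% against 28.5% of all genes in that class. Of 20 members over 4 and up to 6 kb, 9 were lower, or 45.0% against 41.8%. Of 10 members over 6 kb, 8 were lower, or 80.0% against 51.6%. Of those 8, 5 (Usp31, Usp32, Usp37, Usp49 and Usp53) stood below 1 FPKM at 300 µM and passed the filter only through their level at 100 µM, so the difference between these shares is no support for a difference of the members. Within these classes the median log2 ratios of the members were -0.44, -0.82 and -1.21, and those of all genes -0.31, -0.74 and -1.04.

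**Figure D5:**
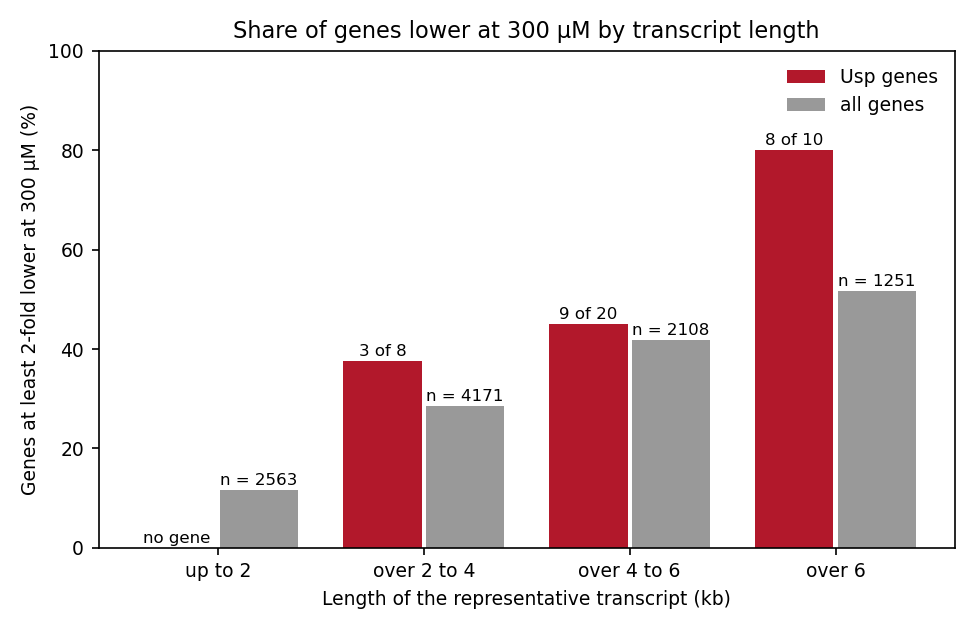
Share of genes at least 2-fold lower at 300 µM in 4 classes of transcript length, for the Usp genes (red) and all genes compared (grey), with the number of genes above each bar. The shares over all genes are larger in the longer classes, and no member compared has a transcript of 2 kb or less.

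Across the 38 members, which share both libraries, Spearman's rho of the log2 ratio was -0.29 with transcript length and -0.15 with 3' UTR length, and across all genes -0.41 and -0.35. With gene span it was -0.09 in the family and -0.06 across all genes. The lower and the other members had the same median gene span to within 100 bases, 54534 bases in 20 lower members and 54598 bases in the other 18. The median GC content of the transcript was 46.7% in the lower members and 47.05% in the others. The part of transcript length in the family's ratios was not tested further.

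The promoter windows of RefSeq (GRCm38.p6, 250 bases before to 50 bases after the start) were found for 35 of the 47 members. They are shown for Usp10, Usp36 and Usp38, of the members with the lowest log2 ratios, and for 2 members near parity, Usp8 and Usp20, so that both kinds can be set side by side. The choice was made with the values known. Capitals mark the GC box (GGGCGG), the CCAAT box (CCAAT), the ETS core (CCGGAA) and the CRE half-site (TGACG), each on either strand, and adjacent or overlapping matches run together. The windows lie at chr8:119910110-119910409 (plus strand) for Usp10, chr11:118290195-118290494 (minus) for Usp36, chr8:81014857-81015156 (minus) for Usp38, chr2:126707078-126707377 (plus) for Usp8 and chr2:30982029-30982328 (plus) for Usp20.
Usp10: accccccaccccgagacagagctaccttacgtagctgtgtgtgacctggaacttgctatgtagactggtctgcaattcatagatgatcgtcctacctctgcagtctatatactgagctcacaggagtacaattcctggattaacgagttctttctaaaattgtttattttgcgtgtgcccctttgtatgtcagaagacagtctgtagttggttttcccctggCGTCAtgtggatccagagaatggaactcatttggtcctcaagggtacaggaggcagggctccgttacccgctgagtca
Usp36: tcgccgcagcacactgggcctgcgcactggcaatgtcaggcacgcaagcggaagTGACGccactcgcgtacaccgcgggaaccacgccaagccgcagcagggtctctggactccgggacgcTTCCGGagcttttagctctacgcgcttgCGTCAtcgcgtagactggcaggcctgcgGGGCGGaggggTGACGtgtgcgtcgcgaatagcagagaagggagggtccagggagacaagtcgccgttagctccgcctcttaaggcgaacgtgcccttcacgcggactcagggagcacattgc
Usp38: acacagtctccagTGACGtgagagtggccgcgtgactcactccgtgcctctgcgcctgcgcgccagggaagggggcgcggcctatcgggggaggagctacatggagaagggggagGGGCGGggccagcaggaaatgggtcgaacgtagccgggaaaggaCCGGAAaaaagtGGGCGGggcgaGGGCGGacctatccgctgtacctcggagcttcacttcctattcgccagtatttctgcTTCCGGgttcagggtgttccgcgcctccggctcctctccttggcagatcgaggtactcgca
Usp8: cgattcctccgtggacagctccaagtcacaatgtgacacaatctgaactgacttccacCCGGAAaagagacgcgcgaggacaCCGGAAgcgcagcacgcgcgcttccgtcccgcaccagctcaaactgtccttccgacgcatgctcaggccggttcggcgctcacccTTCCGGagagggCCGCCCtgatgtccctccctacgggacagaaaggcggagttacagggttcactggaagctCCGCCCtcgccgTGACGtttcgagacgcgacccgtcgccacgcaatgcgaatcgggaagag
Usp20: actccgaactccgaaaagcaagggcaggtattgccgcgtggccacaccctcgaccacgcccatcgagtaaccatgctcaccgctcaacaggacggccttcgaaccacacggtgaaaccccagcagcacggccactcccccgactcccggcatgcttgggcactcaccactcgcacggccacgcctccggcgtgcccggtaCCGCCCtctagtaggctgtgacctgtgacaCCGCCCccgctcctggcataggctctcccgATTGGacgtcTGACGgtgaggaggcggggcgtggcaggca

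The windows of Usp36, Usp38, Usp8 and Usp20 were rich in G and C, from 62.7% to 66.3%, whereas that of Usp10 held 48.3% and no GC box. A GC box was found in 13 of 15 windows of lower members and in 9 of 14 windows of members compared and not lower, against 35.7% of all 32851 windows. Both sets of members were richer in G and C than those windows, with medians of 65.0% and 66.3% against 52.7%. The ETS core was found in 4 of 15 and 5 of 14, against 14.9%, and the CRE half-site in 5 of 15 and 5 of 14, against 20.8%. The CCAAT box was found in 2 of 15 and 4 of 14, against 37.4%. The E-box (CACGTG) and the TATA box (TATAAA) were found in 2 and 1 of the 15, and in 2 and 1 of the 14, against 7.15% and 13.6%. The set of all 32851 windows was not limited to genes compared or to 1 window per gene, so its shares are not like for like with those of the members. These matches are letters in a window, and no binding was measured.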

How the data were processed

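RNA was measured in 1 library per dose. The deposited values are FPKM for each gene number, per the file headers, and carry at most 2 decimals. Per the submitters' processing notes the tools were Bowtie2 and RSEM; their versions, the genome build and the annotation behind the files were not given in the sources used here. NCBI gene numbers were matched to symbols: 17179 of 17215 in RefSeq genes of GRCm38, 7 more in GENCODE M21, and 29 stayed unnamed. Lengths, 3' UTRs, GC content, exon overlaps and shared 50-base words came from GENCODE M21, from the longest coding transcript of the basic set where there was one.

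The value of 1 read was estimated from genes with 1 transcript. At 300 µM, 56.5% of 154 low values came within 0.12 reads of whole counts for a step of 51.5 bases, and at 100 µM 58.6% of 203 did so for a step of 54 bases. With lengths shuffled 20 times the highest such shares were 34.8% at 300 µM and 35.6% at 100 µM. Intervals of ratios are Clopper-Pearson intervals on the estimated reads.

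The members and lists were chosen with earlier results of these data known. All members of the repair, histone and proteasome roles and all members beyond 2-fold are given in both libraries, with the highest 5 levels and the paralog pairs; of the other lists, genes beyond 2-fold and Wdr48, Uchl5, Psmd14, Bap1 and Cyld. Other genes of those lists named in the text were chosen after their values were seen. Some results of the ubiquitin list are not reported here. Beyond the members, 104 of 106 list entries matched a listed gene. The steps were tested on simulated data. The work used Python 3.11.15 with scipy 1.17.1, matplotlib 3.10.9, pandas 2.3.3 and numpy 2.4.6. Alternatives were pseudocounts of 0.1 and 5, other filters, bounds of 1.5-fold and 3-fold, ratios centred on that of the median gene, equal library sums, and a TMM factor without weights that leaves out the outer 30% of ratios and 5% of levels.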

Additional observations from a re-analysis of the deposited data

How the results depend on the processing

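In none of the 9 alternatives was a member called higher, and no member called lower changed its sign. In each of the 4 scalings (as deposited, centred, TMM factor, equal sums) 10 members were lower: Usp10, Usp36, Usp42, Usp38, Usp12, Usp47, Usp37, Usp9x, Usp31 and Usp53. Of these, Usp42, Usp37, Usp31 and Usp53 stood at 0.6, 0.48, 0.63 and 0.15 FPKM at 300 µM. They passed the filter on the mean only through their level at 100 µM. The 4 scalings keep that filter, so being lower in each is no further support for Usp42, Usp37, Usp31 and Usp53. The share of all genes lower in each of the 4 scalings was not taken. The counts depend on the setting. The number of members lower was 8 of 38 with a pseudocount of 5, against 16.1% of all genes. It was 7 of 14 with the filter at 10 FPKM (all genes 21.4%) and 8 at 3-fold (16.3%). It was 10 after centring (22.3%) and 11 with the TMM factor (22.6%). The median log2 ratio of the members compared was -1.17 and -0.43 with pseudocounts of 0.1 and 5. It was -0.84 unfiltered and -0.77 with the filter at 10 FPKM. After centring it was -0.75, with the TMM factor -0.71 and with equal sums -1.27.

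In the repair and p53 role, 3 of 12 were lower with a pseudocount of 5 (median -0.68), and 4 of 5 with the filter at 10 FPKM. At 3-fold, after centring (median -0.83) and with the TMM factor (-0.77), 4 of 12 were lower. With equal sums the median was -1.45. In the histone role, 1 of 7 was lower with a pseudocount of 5 (median -0.39), and 1 of 2 with the filter at 10 FPKM (-0.89). At 3-fold, after centring (-0.76) and with the TMM factor (-0.88), 0 of 7 were lower. The histone median was -1.32 with a pseudocount of 0.1, -0.78 unfiltered and -1.26 with equal sums. The median of Usp5 and Usp14 was -0.02 in the scale used and reversed to 0.28 after centring and to 0.37 with the TMM factor, and was -0.39 with equal sums. Other deubiquitinases lower were 8 of 40 with a pseudocount of 5, 7 of 23 with the filter at 10 FPKM, 8 of 40 at 3-fold and 9 of 40 after centring. The shares of all genes lower in these settings are those given above beside the counts of members. By construction the number of lower calls cannot rise where fewer genes or a larger fold are asked for, or where 5 is added. The same holds after centring and with the TMM factor, which raise every ratio. Other differences between the settings were not tested. The sign of 8 members compared differed between scalings: Usp3, Usp4, Usp5, Usp8, Usp15, Usp20, Usp39 and Usp40.

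No paired analysis was possible because each dose has 1 library. For the same reason no value has a spread between cultures, and a difference between the doses and one between 2 dishes cannot be told apart. Members with few estimated reads, such as Usp53 with 18 and Usp27x with 33 at 300 µM, have the widest counting intervals.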
